A study of Mus musculus with 15 samples.

Results

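Maf, Mafk, Mafg, Maff, Bach1 and Bach2 encode the large Maf, small Maf and Bach transcription factors compared here across mouse CD4 T cells cultured as Th1, Th17 or Tfh (T follicular helper) cells. These 6 genes were taken by symbol from the 27179 genes of the deposited RNA-seq count table, and all 6 were found. Each condition had 5 libraries. Naive CD4 T cells were stimulated for 3.5 days on plates coated with antibodies to CD3 and CD28, then sorted. All 3 groups had the same genotype, B6.Cg-Ifngtm3.1Lky-Il17atm1.1Lky, a pair of altered alleles at the interferon gamma (Ifng) and interleukin 17A (Il17a) genes that by name are cytokine reporters, so no group was without them. The design text gives Th1 cells as sorted positive for interferon gamma, and Tfh cells as sorted positive for the chemokine receptor CXCR5 and negative for IL-17A. The gate for Th17 cells, the cytokines of each culture and the age of the mice are stated in none of the sources used here, and no label says whether libraries of a condition came from separate mice or cultures. The Tfh cells are cells of a culture, named by their sort and condition, not cells taken from a follicle. The series concerns the part played by c-Maf, the protein of Maf, in the choice between Tfh and Th17 fates.

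These factors share a basic leucine zipper, a helical segment that grips DNA and pairs with a second protein. Large Mafs such as c-Maf carry an activation domain and can switch genes on as homodimers at Maf recognition elements. Small Mafs (MafK, MafG, MafF) have the zipper but no activation domain: they repress as homodimers, and as partners they bring Bach proteins or the cap'n'collar (CNC) factors, such as NRF2, to antioxidant response elements. BACH1 represses haem oxygenase and other antioxidant genes until haem binds it and it is degraded. BACH2 restrains effector differentiation of T cells, in part by repressing Prdm1. In CD4 T cells c-Maf is known for driving IL-10, IL-21 and IL-4, and it acts in both Th17 and Tfh cells.

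The relation between the members can be read from the DNA that encodes their DNA-contacting parts. The following 60-base coding stretches, from the GRCm38 assembly, are those found most alike within each family. They encode part of the extended homology region of the Mafs and part of the basic region of the Bach pair. Capitals in the Maf and Bach2 lines mark the whole reference stretch, and in the other lines a base equal to that of Maf or of Bach2 at the same place.
Maf: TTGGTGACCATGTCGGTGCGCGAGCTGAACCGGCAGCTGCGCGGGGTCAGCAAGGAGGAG
Mafk: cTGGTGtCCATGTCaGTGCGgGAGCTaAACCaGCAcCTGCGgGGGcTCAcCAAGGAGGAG
Mafg: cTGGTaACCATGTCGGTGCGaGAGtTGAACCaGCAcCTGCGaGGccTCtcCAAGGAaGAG
Maff: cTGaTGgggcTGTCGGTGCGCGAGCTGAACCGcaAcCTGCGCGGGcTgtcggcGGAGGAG
Bach2: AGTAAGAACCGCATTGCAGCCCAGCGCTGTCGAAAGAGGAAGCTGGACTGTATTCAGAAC
Bach1: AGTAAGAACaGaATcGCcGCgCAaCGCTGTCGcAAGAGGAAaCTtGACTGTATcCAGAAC
Against Maf, 50 of 60 bases matched in Mafk, 48 in Mafg and 44 in Maff. Bach1 matched Bach2 at 50 of 60 bases. The stretches lie at chr8:115706018-115706077 on the reverse strand for Maf, chr5:139800133-139800192 on the forward strand for Mafk, chr11:120629629-120629688 on the reverse strand for Mafg and chr15:79357469-79357528 on the forward strand for Maff. Those of Bach2 and Bach1 lie at chr4:32575363-32575422 and chr16:87722525-87722584, both on the forward strand. All are coding sequence within 1 exon. In counting, a read that fits 2 members equally cannot be assigned to either. The longest exact run shared by any pair of members' transcripts was 23 bases (Mafk with Mafg, and Mafg with Maff). A read longer than that could not match 2 of those transcripts exactly.

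The genes themselves are spread over 6 chromosomes (GRCm38, RefSeq spans). Maf (gene ID 17132) lies at chr8:115703253-115706894 on the reverse strand, Mafk (17135) at chr5:139791536-139802653 on the forward strand, Mafg (17134) at chr11:120625117-120634955 on the reverse strand and Maff (17133) at chr15:79346621-79359078 on the forward strand. Bach1 (12013) lies at chr16:87698954-87733346 and Bach2 (12014) at chr4:32238413-32586109, both on the forward strand. Some exons overlap those of neighbours, and the strand setting of the counting is not given. Mafg shares 124 bp of exon with Sirt7 on its own strand, Maf 440 bp with the antisense Gm15655, Bach2 537 bp with the opposite-strand Bach2os, and Mafk 169 bp with Tmem184a, which had 2 counts in all. Reads in those stretches cannot be assigned to 1 gene with certainty.

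Total counts per library ran from 4.87 M to 25.2 M with a median of 10.5 M (M, 1 followed by 6 zeros). Depth differed greatly between members. Over the 15 libraries Maf had 111298 counts and Bach2 75244, but Mafk had 2313, Bach1 1730, Maff 1664 and Mafg 1433. The defining markers of the labelled cell type were present: the sum of 8 CD4 T cell markers was 4076 to 5250 CPM (counts scaled to 1 M per library) in Th1, 5865 to 6655 in Th17 and 6856 to 8226 in Tfh libraries. Markers of B cells, which also express Bach2, summed to at most 3.56 CPM in any library, with Pax5 at 0 throughout and Ms4a1 at 0 in Th17 and Tfh. The highest means were those of Cd79b in Th1 (0.89 CPM), Blk in Th17 (0.80) and Cd79a in Tfh (1.17). The sum of 8 myeloid markers, cells that also express Bach1, was 5.54 to 13.8 CPM in Th1, 3.74 to 6.91 in Th17 and 1.06 to 3.36 in Tfh, and was mostly Cebpb. Itgam averaged 0.72 CPM in Tfh, with 3.09 in its highest library, and Csf1r averaged 0.68 in Th17. Spi1 was at 0 in all libraries, Lyz2 at 0 in Th1 and Th17, and Csf1r at 0 in Tfh. The sum of 6 markers of CD8 T and NK cells was 24.9 to 36.3, 27.8 to 61.5 and 19.1 to 45.8 CPM in Th1, Th17 and Tfh, with Ncr1 at 0. The highest means in the 3 conditions were those of Cd8b1 (11.45, 10.3 and 7.34 CPM) and Klrd1 (9.14, 34.0 and 18.3). Cd8a averaged 5.52, 0.26 and 0 CPM, and Eomes 4.5, 0.12 and 0.26. The part of these marker sums in the differences that follow was not tested.

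Maf showed 3 separate levels. Th1 libraries 1 to 5 held 12.6, 13.3, 8.60, 7.01 and 12.2 CPM. Th17 libraries held 1039, 951.5, 762, 580.3 and 656 CPM, and Tfh libraries 2043, 1836, 1617, 1111 and 1542 CPM. The lowest Tfh library exceeded the highest Th17 library, and every Th17 library was far above every Th1 library. Means were 10.7 ± 2.75, 798 ± 194 and 1629.8 ± 350.0 CPM (SD, n = 5 each). Tfh cells held 2.04-fold more Maf RNA than Th17 cells (log2 fold change 1.03 ± 0.20 SE, 95% interval 0.62 to 1.45), with an adjusted p of 0.00125 in edgeR's quasi-likelihood test. Against Th1 it was 153-fold higher in Tfh (log2 7.26 ± 0.26, adjusted p = 1.29e-13, edgeR) and 74.8-fold higher in Th17 (log2 6.22 ± 0.25, adjusted p = 8.55e-13, edgeR). Both of those comparisons use the same Th1 libraries. Among the 12591 genes tested, Maf had the 66th highest fold change of Tfh over Th1 and the 77th of Th17 over Th1, but only the 523rd of Tfh over Th17. Replicate 4 was the lowest Maf library in each condition. Its rank correlation of level with GC content across genes was 0.41, 0.54 and 0.37 in Th1, Th17 and Tfh, within a range of -0.40 to 0.54 over the 15 libraries. With a correction for GC content the log2 fold change of Tfh over Th17 was 1.11 ± 0.16. In bulk samples, more cells that express a gene and more RNA per cell cannot be told apart.

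**Figure D1:**
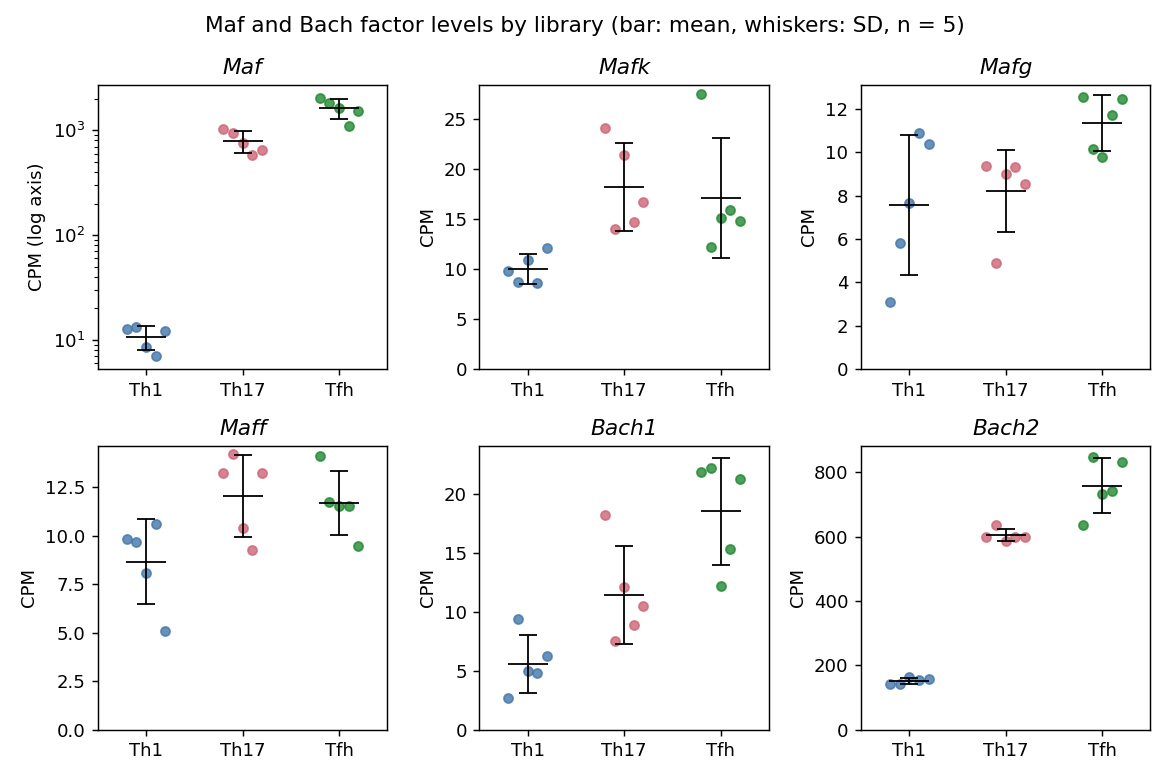
CPM of the 6 genes in each of 15 libraries, 5 per condition, on a log axis for Maf and on linear axes of different height for the others. Points are libraries, ordered from replicate 1 at the left, horizontal bars are means and whiskers SD. Maf separates the 3 conditions without overlap, with Tfh libraries from 1111 to 2043 CPM, Th17 libraries from 580.3 to 1039 and Th1 libraries from 7.01 to 13.3.

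Of the small Mafs, Mafk alone passed the test in any comparison. Its libraries 1 to 5 stood at 9.81, 8.70, 10.9, 8.58 and 12.1 CPM for Th1, at 24.1, 14.0, 21.4, 14.7 and 16.7 CPM for Th17, and at 27.5, 12.2, 15.1, 15.9 and 14.8 CPM for Tfh. All 10 Th17 and Tfh libraries were above all 5 Th1 libraries, while Th17 and Tfh overlapped over most of their range. Relative to Th1, Mafk was 1.81-fold higher in Th17 (log2 0.86 ± 0.23, adjusted p = 0.00682, edgeR) and 1.69-fold higher in Tfh (log2 0.76 ± 0.23, adjusted p = 0.0114, edgeR). Between Tfh and Th17 the difference was -0.10 ± 0.23 on the log2 scale, with an interval of -0.58 to 0.39 and an adjusted p of 0.829 (edgeR). Tfh replicate 1, at 27.5 CPM, lay well above the other 4 Tfh libraries, whose highest was 15.9.

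Mafg, another small Maf, stood at 3.08, 5.80, 7.67, 10.9 and 10.4 CPM in Th1 libraries 1 to 5. Its Th17 libraries held 9.37, 4.87, 9.01, 9.33 and 8.54 CPM, and its Tfh libraries 12.6, 10.2, 9.80, 11.7 and 12.5 CPM. Th1 libraries were widely spread and overlapped both other conditions. All 5 Tfh libraries lay above all 5 Th17 libraries, yet Tfh against Th17 did not pass the test (log2 0.46 ± 0.29, interval -0.15 to 1.07, adjusted p = 0.316, edgeR). Tfh against Th1 was 0.57 ± 0.29 (adjusted p = 0.111, edgeR) and Th17 against Th1 0.11 ± 0.29 (adjusted p = 0.801, edgeR). The Tfh to Th1 difference passed when levels were corrected for GC content, at 0.62 with an adjusted p of 0.0427 (edgeR). Mafg is the member with the fewest counts, and it shares exon with Sirt7, which had 10757 counts.

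Maff, the remaining small Maf, stood at 9.81, 9.67, 8.10, 10.6 and 5.11 CPM in its Th1 libraries, at 13.2, 14.2, 10.4, 9.24 and 13.2 CPM in its Th17 libraries, and at 14.1, 11.7, 11.5, 11.6 and 9.49 CPM in its Tfh libraries. Libraries of the 3 conditions overlapped. No comparison passed the test: the log2 difference was 0.48 ± 0.22 for Th17 over Th1 (interval 0.01 to 0.95, adjusted p = 0.103, edgeR), 0.43 ± 0.22 for Tfh over Th1 (interval -0.04 to 0.90, adjusted p = 0.121, edgeR) and -0.05 ± 0.22 for Tfh over Th17 (interval -0.52 to 0.42, adjusted p = 0.918, edgeR). The upper ends of the intervals against Th1 reach nearly 1 on the log2 scale, so these counts leave room for differences as large as those of Mafk.

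Bach1 was lowest in Th1. Its Th1 libraries 1 to 5 stood at 2.66, 9.38, 5.0, 4.80 and 6.22 CPM, its Th17 libraries at 18.3, 7.52, 12.1, 8.86 and 10.5 CPM, and its Tfh libraries at 21.8, 22.2, 12.2, 15.3 and 21.2 CPM. Tfh libraries were all above Th1 libraries, and Th17 libraries overlapped both. Relative to Th1, Bach1 was 3.27-fold higher in Tfh (log2 1.71 ± 0.31, adjusted p = 0.00016, edgeR) and 2.02-fold higher in Th17 (log2 1.02 ± 0.31, adjusted p = 0.0143, edgeR). The latter rested on Th17 replicate 1, the highest Th17 library: without it the log2 difference was 0.79 with an adjusted p of 0.0535 (edgeR). Between Tfh and Th17 the difference was 0.70 ± 0.30 (interval 0.06 to 1.33), with an unadjusted p of 0.0326 and an adjusted p of 0.129 (edgeR), which did not pass. It passed with a GC correction, at 0.77 with an adjusted p of 0.045 (edgeR).

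Bach2 was expressed in all 3 conditions and was the steadiest member among replicates. Th1 libraries 1 to 5 stood at 142, 142, 163, 154 and 157 CPM, Th17 libraries at 598, 637, 587, 599.6 and 599 CPM, and Tfh libraries at 636, 848, 731, 743 and 833 CPM. Every Th17 and Tfh library exceeded every Th1 library, and Tfh replicate 1 fell just below the highest Th17 library. Means were 151 ± 9.52, 604 ± 19.0 and 758 ± 85.7 CPM (SD, n = 5 each). Its level exceeded that of Th1 5.0-fold in Tfh (log2 2.32 ± 0.11, adjusted p = 2.72e-12, edgeR) and 3.99-fold in Th17 (log2 2.0 ± 0.11, adjusted p = 3.27e-11, edgeR). Tfh exceeded Th17 by 0.33 ± 0.10 on the log2 scale (interval 0.11 to 0.54), 1.25-fold, with an adjusted p of 0.0327 (edgeR). That small difference ranged from 0.30 to 0.38 under 25 alternative analyses, but its call was not stable. It kept its direction but lost the call with no filter on low counts (adjusted p = 0.0749, edgeR) and without any 1 of 6 libraries: Th17 replicates 1, 3 and 5 (adjusted p = 0.0704, 0.0635 and 0.0547, edgeR) and Tfh replicates 2, 4 and 5 (adjusted p = 0.0641, 0.0556 and 0.0678, edgeR).

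Counted over the members, 2 of 6 were called higher in Tfh than in Th17 (Maf and Bach2), where 16.8% of the 12591 genes tested were called, 6.80% higher and 9.98% lower in Tfh. Against Th1, 4 of 6 (Maf, Mafk, Bach1 and Bach2) were called higher in Tfh, where 49.3% of genes were called, 24.1% higher and 25.2% lower. The same 4 were called higher in Th17 than in Th1, where 36.9% of genes were called, 19.0% higher and 17.8% lower. None was called lower in any of the 3 comparisons. The libraries did not overlap for 2 of 6 members between Tfh and Th17 (Maf and Mafg, against 14.5% of all genes), for 4 of 6 between Tfh and Th1 (34.3% of all genes) and for 3 of 6 between Th17 and Th1 (28.8% of all genes). The median log2 fold change of the 6 was 0.39, 1.24 and 0.94 in the 3 comparisons, beside -0.01, -0.01 and 0.03 over all genes. With 6 members that were picked by family, these counts describe the genes and test nothing further.

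**Figure D2:**
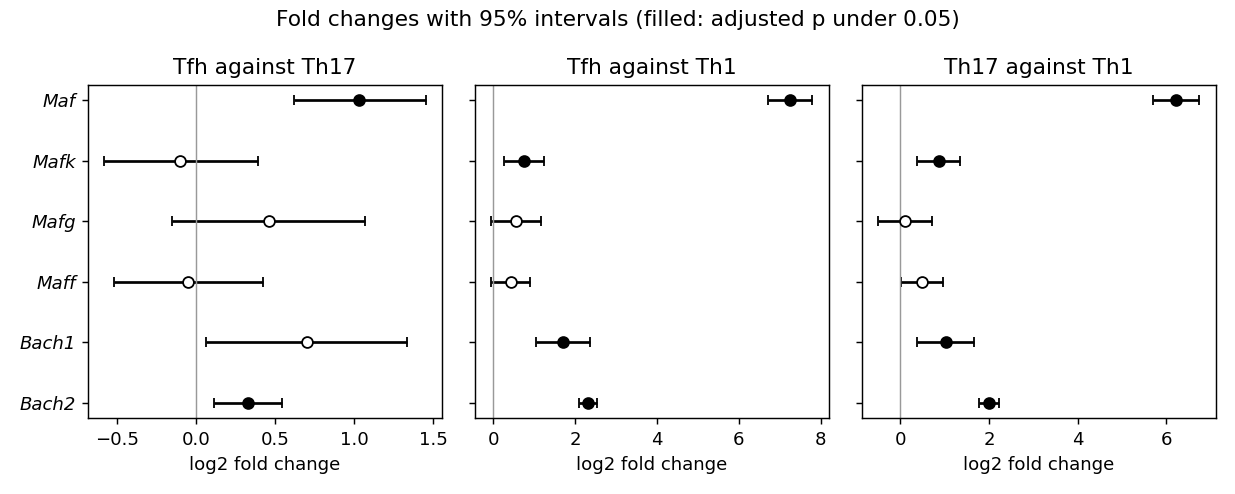
Log2 fold changes of the 6 genes in the 3 comparisons, with 95% intervals from edgeR. Filled points passed an adjusted p of 0.05 and open points did not. Maf lies at 7.26 and 6.22 against Th1 and at 1.03 for Tfh against Th17, and no filled point is below 0.

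Levels of different genes can be compared only per length of transcript. On CPM per kb of the longest annotated transcript (6360 bp for Maf, 8882 bp for Bach2), Bach2 led in Th1 at 17.1 ± 1.07 CPM per kb, followed by Maff at 4.42, Mafk at 3.23, Maf at 1.69 ± 0.43, Mafg at 1.54 and Bach1 at 0.96. In Th17 Maf led at 125 ± 30.5 CPM per kb, ahead of Bach2 at 68.0 ± 2.14, Maff at 6.16, Mafk at 5.87, Bach1 at 1.95 and Mafg at 1.67. In Tfh the order was Maf at 256 ± 55.0, Bach2 at 85.4 ± 9.65, Maff at 5.96, Mafk at 5.52, Bach1 at 3.16 and Mafg at 2.31 CPM per kb. Libraries of Maff and Mafk overlapped in all 3 conditions, as did those of Bach1 and Mafg, and those of Maf overlapped Mafg and Bach1 in Th1. Maf and Bach2 overlapped no other member in Th17 or Tfh. Exchanging the longest transcript for the union of all exons put Mafg (1.35) above Maf (1.30) in Th1 and Mafk (4.66) above Maff (4.65) in Th17. Over its RefSeq span of 3642 bp, shorter than the longest GENCODE transcript, Maf stood at 2.95, 219 and 447.5 CPM per kb in Th1, Th17 and Tfh, above Mafg and below Mafk in Th1, and its ratios to other members would rise by the same factor in each condition. By longest transcript, among 11528 genes with a length, Maf ranked 9549th per kb in Th1, 477th in Th17 and 164th in Tfh. Bach2 ranked 3883rd, 972nd and 688th. Maf thus moved from below most genes tested to among the highest, while Bach2 was above 66.3% of genes even in Th1.

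**Figure D3:**
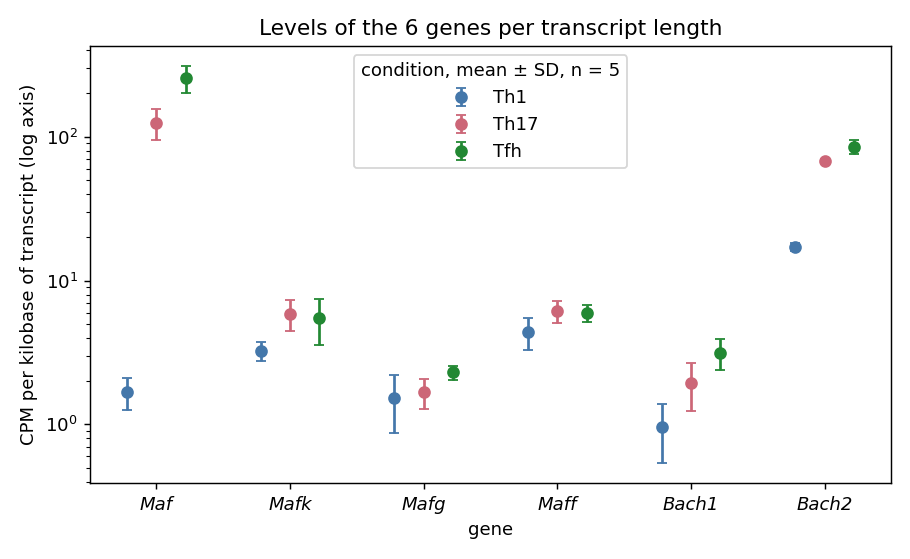
CPM per kb of longest transcript for the 6 genes on a log axis, by condition. Points are means of 5 libraries and whiskers SD. Bach2 is the highest member in Th1 (17.1 CPM per kb) and Maf the highest in Th17 and Tfh (125 and 256 CPM per kb), while the means of the small Mafs and Bach1 run from 0.96 to 6.16 CPM per kb.

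Since small Mafs are the shared partners of Bach and CNC proteins, the members were also set against each other within each library, per kb. The summed small Mafs were 9.19 ± 0.71 CPM per kb in Th1, 13.7 ± 1.88 in Th17 and 13.8 ± 2.76 in Tfh (SD, n = 5). Their mean make-up had the same order in the 3 conditions, with Maff giving 47.9%, 45.2% and 43.7% of the sum, Mafk 35.5%, 42.5% and 39.3%, and Mafg 16.6%, 12.3% and 17.0% in Th1, Th17 and Tfh. Single libraries varied widely: in Th1 the Maff share ran from 30.3% to 56.9%, that of Mafk from 26.6% to 45.3% and that of Mafg from 7.11% to 24.5%. Maf stood to the summed small Mafs as 0.19 ± 0.06 in Th1, 9.13 ± 1.73 in Th17 and 18.9 ± 4.08 in Tfh. Bach2 transcripts exceeded the summed small Maf transcripts in every condition, by a ratio of 1.86 ± 0.16 in Th1, 5.05 ± 0.74 in Th17 and 6.44 ± 1.64 in Tfh. Tfh replicate 1, with its high Mafk, had the lowest Tfh ratio, 3.85. Bach2 stood to Bach1 as 20.9 ± 9.23, 38.5 ± 12.9 and 28.4 ± 7.76. Maf stood to Bach2 as 0.10 ± 0.03, 1.84 ± 0.43 and 3.06 ± 0.89, so that the activator's transcript was the less abundant of the pair in Th1 and the more abundant in the other conditions. These ratios are of RNA and say nothing of protein. No test was run on them, because their numerators are the genes tested above.

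**Figure D4:**
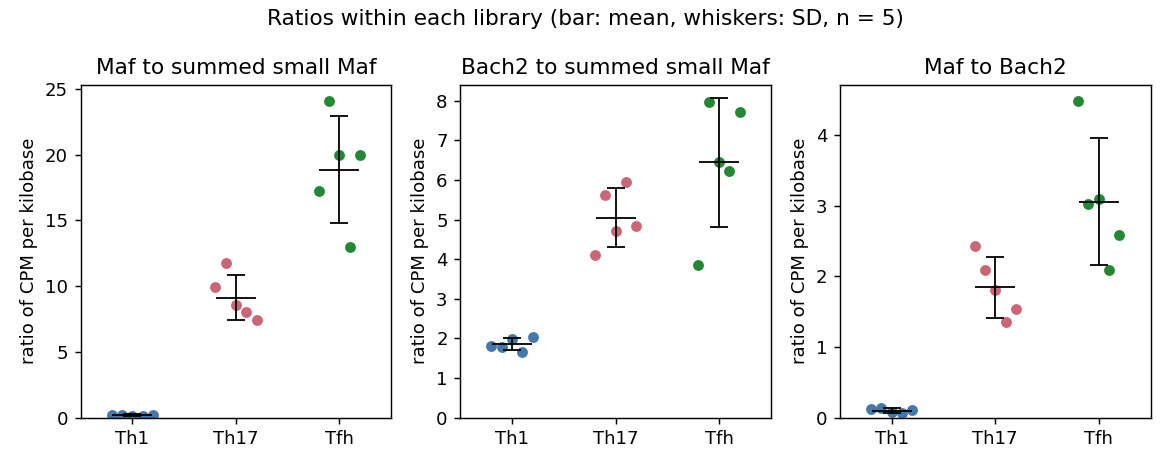
Ratios of Maf to the summed small Mafs, Bach2 to the summed small Mafs, and Maf to Bach2 within each library, from CPM per kb, on linear axes by condition. Points are libraries, bars means and whiskers SD. The mean ratio of Maf to the summed small Mafs is 0.19 in Th1, 9.13 in Th17 and 18.9 in Tfh, with no overlap between libraries of the conditions.

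Genes with the most similar pattern were found for each member as the smallest root mean square difference over the 15 libraries between log2 CPM values, each gene centred on its own mean. For Maf they were Nipal1 (0.29), Nt5e (0.41), Il1r1 (0.44) and Gli3 (0.48), where the median gene was at 3.21. Nipal1, a magnesium transporter, averaged 1.19, 101 and 197 CPM in Th1, Th17 and Tfh. Nt5e, which encodes the ectonucleotidase CD73, averaged 8.62, 775 and 1359 CPM, and Il1r1, the IL-1 receptor, 1.74, 124 and 228 CPM. Each of these 3 genes had the same order of conditions as Maf, which their choice by similarity made likely in advance. For Bach2 they were Akap13 (0.15), Tnfrsf26 (0.15) and Usp38 (0.16), with the median gene at 1.08. Akap13, a protein kinase A anchor, averaged 152, 508 and 676 CPM. For Bach1 they were Zhx3 (0.39), Tnik (0.39) and Gab3 (0.40), with the median gene at 0.93. For the flatter small Mafs many genes were close: Psmc5 (0.19) and Mcm6 (0.23) for Mafk, Usp19 (0.24), Znfx1 (0.25) and B4galt5 (0.26) for Mafg, and Vopp1 (0.22), Gosr2 (0.22) and Cops8 (0.23) for Maff, where the median genes were at 0.63, 0.67 and 0.55. The values are descriptions over libraries of 3 conditions and carry no test.

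Promoter sequence was compared through RefSeq windows of 250 bases before to 50 bases after each start site (GRCm38.p6). Of the members, 5 had 7 windows between them, and Maf had no entry. The antioxidant response element core, TGACNNNGC, which small Maf dimers with NRF2 or BACH1 recognise, was found on either strand in 12.4% of 32851 mouse promoters. It matched once in the window of each small Maf, counting the most upstream of the 3 Maff start sites, and not in the windows of Bach1 or Bach2. The Bach2 window, chr4:32417185-32417484, lies inside the RefSeq span given above, so the upstream end of that span was not searched. The Mafg window also lies inside its span. The small Maf windows are shown because, of the windows searched, they alone held the core, with the match in capitals.
Mafk: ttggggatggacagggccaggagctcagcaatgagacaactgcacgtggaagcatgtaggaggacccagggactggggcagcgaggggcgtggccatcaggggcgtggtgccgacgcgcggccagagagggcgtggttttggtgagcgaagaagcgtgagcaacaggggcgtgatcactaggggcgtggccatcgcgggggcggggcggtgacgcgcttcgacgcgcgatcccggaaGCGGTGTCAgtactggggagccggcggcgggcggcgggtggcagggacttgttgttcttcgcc
Mafg: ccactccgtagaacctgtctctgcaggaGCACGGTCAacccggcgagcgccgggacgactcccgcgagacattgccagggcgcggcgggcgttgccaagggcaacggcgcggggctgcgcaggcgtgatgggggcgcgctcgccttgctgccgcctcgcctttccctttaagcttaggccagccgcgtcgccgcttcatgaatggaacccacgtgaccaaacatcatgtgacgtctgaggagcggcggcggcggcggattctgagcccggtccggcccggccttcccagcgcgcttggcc
Maff: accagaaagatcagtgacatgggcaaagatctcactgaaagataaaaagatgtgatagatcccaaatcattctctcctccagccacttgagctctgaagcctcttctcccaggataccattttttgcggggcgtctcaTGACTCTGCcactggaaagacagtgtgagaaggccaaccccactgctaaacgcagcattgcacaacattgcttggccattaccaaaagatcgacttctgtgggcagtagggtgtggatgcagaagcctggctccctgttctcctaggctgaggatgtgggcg
The windows are chr5:139791286-139791585 on the forward strand (Mafk), chr11:120633498-120633797 on the reverse strand (Mafg) and chr15:79346371-79346670 on the forward strand (Maff). In Mafk and Mafg the match is on the strand opposite to the gene. The downstream Maff start at chr15:79347270-79347569 held a cyclic AMP response element, TGACGTCA, present in 1.79% of promoters. The long Maf recognition elements, the T-MARE found in 1 of the 32851 promoters and the C-MARE found in 0, the shorter TGCTGAC that both contain (4.67%) and the AP-1 element TGANTCA (7.81%) matched in no member's window. A match describes letters and is not a measured site, and the small Mafs that share it differed in their tests, with Mafk called against Th1 and Mafg and Maff not.

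Of the other large Mafs, those given here had almost no counts. Mafa had 0 counts in all libraries, and Nrl had 2, 0 and 0 counts over the 5 libraries of Th1, Th17 and Tfh. A count of 0 in a single library allows up to 3 counts, which equal 0.13 to 0.58 CPM there. For a count of 0 summed over the 5 libraries of a condition, the same 3 counts equal a lower CPM. Among CNC factors, Nfe2l2, which encodes NRF2, averaged 111 ± 10.4 CPM among Th1 libraries, 92.0 ± 2.53 among Th17 and 135 ± 27.3 among Tfh (SD, n = 5). It was higher in Tfh than in Th17 by 0.56 ± 0.14 on the log2 scale (adjusted p = 0.01, edgeR), and its differences from Th1 did not pass (adjusted p = 0.1 for Tfh and 0.146 for Th17, edgeR). Without Tfh replicate 1, Tfh exceeded Th1 by 0.41 with an adjusted p of 0.00349 (edgeR). Tfh over Th1 also passed with unscaled library sizes (0.34, adjusted p = 0.0443), a GC offset (0.30, 0.0465) and that offset with the replicate block (0.30, 0.0101, all edgeR). Th17 was lower than Th1 and passed in DESeq2 (-0.33, adjusted p = 0.042). It also passed in edgeR with a GC offset (-0.32, 0.046), offset and block (-0.31, 0.0103), and without Tfh replicate 1 (-0.27, 0.0396). Nfe2l1, a CNC factor of proteasome supply, went the other way from Maf and Bach2, at 122 ± 15.9 CPM for Th1, 45.7 ± 7.98 for Th17 and 48.4 ± 12.6 for Tfh. Its log2 fold change over Th1 was -1.42 ± 0.17 in Th17 (adjusted p = 2.85e-06, edgeR) and -1.34 ± 0.17 in Tfh (adjusted p = 3.53e-06, edgeR). Nfe2 (25, 24 and 49 counts) and Nfe2l3 (15, 11 and 24 counts) were too low to test.

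Genes reported to respond to c-Maf in CD4 T cells, in either direction, were followed as a list of 16, of which 14 were tested. Between Tfh and Th17, 5 were higher in Tfh, 3 lower and 6 not called (median log2 fold change 0.21), beside 6.80% of all genes called higher and 9.98% lower. The higher ones were led by the sorted receptor Cxcr5 (2.11 ± 0.15), the cytokine Il10 (1.15 ± 0.29), the co-inhibitory receptor Lag3 (1.15 ± 0.26) and Il1r1 (0.88 ± 0.15). Those lower in Tfh were Il2 (-6.99 ± 0.55), with 14 counts against 2152, Il17a (-3.88 ± 0.28), which the Tfh sort excluded, and the IL-23 receptor Il23r (-2.10 ± 0.32). Against Th1, 8 were higher and 3 lower in Tfh (list median 2.62), beside 24.1% and 25.2% of all genes. In Th17 against Th1, 10 were higher and 2 lower (list median 2.08), beside 19.0% and 17.8% of all genes. Il1r1 was higher by 6.98 ± 0.20 in Tfh and 6.10 ± 0.20 in Th17. Havcr2, which encodes the co-inhibitory receptor TIM-3, had 299 counts in Th1 and 0 in Tfh and Th17, at least 69.9-fold lower in Tfh and 81.2-fold lower in Th17 against a floor of 3 counts over a condition. Between Tfh and Th17 its log2 fold change was thus fixed at 0. It counts among the 6 not called there and enters the list median of 0.21. Il4 and Il22, cytokines also on the list, did not pass the filter.

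Genes reported to respond to Bach2, mostly by repression, numbered 14, of which 11 were tested. Il10 and Il4 are on both lists, and Ifng is the gene on which Th1 cells were sorted. Prdm1, which encodes Blimp-1 and is the best known target, had 1659 counts in Th1, 31 in Th17 and 6 in Tfh. Its log2 fold change over Th1 was -7.49 ± 0.61 in Tfh and -5.44 ± 0.50 in Th17. That of the cytotoxic protease Gzmb was -8.12 ± 0.55 in Tfh and -9.41 ± 0.60 in Th17, and Il1rl1, the IL-33 receptor, had 1028 counts in Th1 and 2 in each other condition. In all, 5 were lower in Tfh than in Th1 and 5 higher (list median -0.25), beside 25.2% and 24.1% of all genes. In Th17, 5 were lower than in Th1 and 4 higher (list median -0.14), beside 17.8% and 19.0% of all genes. The higher ones included Bcl6, the Tfh regulator (3.22 ± 0.30 in Tfh, 2.14 ± 0.29 in Th17), Id2 (2.49 ± 0.22 and 2.80 ± 0.22) and Rora (2.07 ± 0.25 in both). Between Tfh and Th17, 3 were higher and 2 lower in Tfh (list median -0.01), beside 6.80% and 9.98% of all genes. Gata3, the Th2 regulator, was higher in Tfh by 1.84 ± 0.29, and Nfil3 (-1.36 ± 0.18) and the chemokine receptor Ccr4 (-0.62 ± 0.14) were lower. The list thus held calls in both directions in each comparison.

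Genes with antioxidant response elements, the DNA class at which small Mafs meet BACH1 or NRF2, numbered 22, and 21 were tested. Between Tfh and Th17, 9 were lower in Tfh, 0 higher and 12 not called (median -0.34), beside 9.98% of all genes called lower. Those named by the rule were thioredoxin Txn1 (-1.12 ± 0.11), glutathione reductase Gsr (-1.05 ± 0.13), the pentose phosphate enzyme Tkt (-0.83 ± 0.19) and sulfiredoxin Srxn1 (-1.76 ± 0.50), which lost its call without Tfh replicate 3 (adjusted p = 0.0502, edgeR). Haem oxygenase Hmox1, the best known BACH1 target, stood at 33.1, 20.3 and 21.5 CPM in Th1, Th17 and Tfh and passed in no comparison (adjusted p = 0.07 for Tfh against Th1, 0.0541 for Th17 against Th1 and 0.894 for Tfh against Th17, edgeR). Against Th1, 9 were lower and 2 higher in Tfh (list median -0.64), beside 25.2% and 24.1% of all genes. Lower ones included Txn1 (-1.32 ± 0.11), Tkt (-1.42 ± 0.19), ferritin heavy chain Fth1 (-0.80 ± 0.12) and the cystine transporter Slc7a11, at 1 count against 364. Gclc, which makes the glutathione precursor, was higher in Tfh (0.79 ± 0.14). In Th17 against Th1 the list split into 3 higher (Prdx1 at 0.91 ± 0.16, Gclc at 0.57 ± 0.14 and Gsr at 0.41 ± 0.13) and 3 lower (median 0.10). Of all genes, 19.0% were called higher and 17.8% lower in that comparison. The Gsr call was lost without Th1 replicate 3 or 4 (adjusted p = 0.0669 and 0.0896, edgeR) or Th17 replicate 3 or 5 (0.0994 and 0.0688). Me1, NADP-malic enzyme, had 125 counts in Th1 and 0 in the other conditions. Between Tfh and Th17 its log2 fold change was thus fixed at 0, and it counts among the 12 not called there.

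Of 8 genes that govern turnover of NRF2 or BACH1, or haem synthesis, the NRF2 adaptor Keap1 was lower than in Th1 in both Tfh (-0.92 ± 0.14) and Th17 (-0.52 ± 0.14). Between Tfh and Th17, 1 was higher, Fbxl17 (0.43 ± 0.13), a ligase subunit that acts on BACH1, and 2 were lower. Of all genes, 6.80% were called higher and 9.98% lower in that comparison. The Fbxl17 call was lost with no filter on low counts (adjusted p = 0.0905, edgeR) and without any 1 of 6 libraries: Th17 replicates 1, 2 and 3 (adjusted p = 0.0836, 0.0715 and 0.059, edgeR) and Tfh replicates 2, 3 and 4 (adjusted p = 0.0634, 0.0516 and 0.0933, edgeR). Against Th1, 2 were higher in Tfh, Fbxo22 (0.78 ± 0.19), another ligase subunit that acts on BACH1, and Fbxl17 (0.35 ± 0.13). In the same comparison 3 were lower, among them Keap1 and the haem synthesis enzyme Alas1 (-0.48 ± 0.14). All genes tested stood at 24.1% called higher and 25.2% lower. The Fbxl17 call against Th1 was lost under 13 of the 25 alternatives, 10 of them leaving out 1 library (Th1 replicates 1, 3, 4 and 5, Th17 replicates 3, 4 and 5, and Tfh replicates 2, 3 and 4), with adjusted p from 0.0543 to 0.128 (edgeR). The median of the list was -0.29, -0.19 and 0.03 in Tfh against Th17, Tfh against Th1 and Th17 against Th1.

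A list of 16 receptors, signal transducers and factors reported upstream of Maf or Bach2 was tested in full. Of these, 5 were higher and 0 lower in Tfh than in Th17 (list median 0.35), beside 6.80% and 9.98% of all genes. The higher ones included the shared IL-6 and IL-27 receptor chain Il6st (1.51 ± 0.13), the TGF-β receptor chain Tgfbr2 (0.87 ± 0.10), Il27ra (0.59 ± 0.17) and the transcription factor Foxo1 (0.52 ± 0.10). Il27ra lost its call without Th17 replicate 1, 2 or 3 (adjusted p = 0.0683, 0.062 and 0.053, edgeR) or Tfh replicate 4 (0.0678). Against Th1, 11 were higher and 2 lower in Tfh (list median 1.08), beside 24.1% and 25.2% of all genes. In Th17 against Th1, 11 were also higher and 2 lower (list median 0.78), beside 19.0% and 17.8% of all genes. Smad3, which carries the TGF-β signal, was higher by 2.85 ± 0.14 in Tfh and 2.53 ± 0.14 in Th17, the other receptor chain Tgfbr1 by 2.12 ± 0.26 and 1.52 ± 0.25, and Tgfbr2 by 2.34 ± 0.11 and 1.47 ± 0.11. The lower ones included the IL-21 receptor Il21r (-1.61 ± 0.16 and -1.17 ± 0.16). The lists were chosen with earlier results of these data known, so their counts describe these genes and are not independent evidence of a direction.

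**Figure D5:**
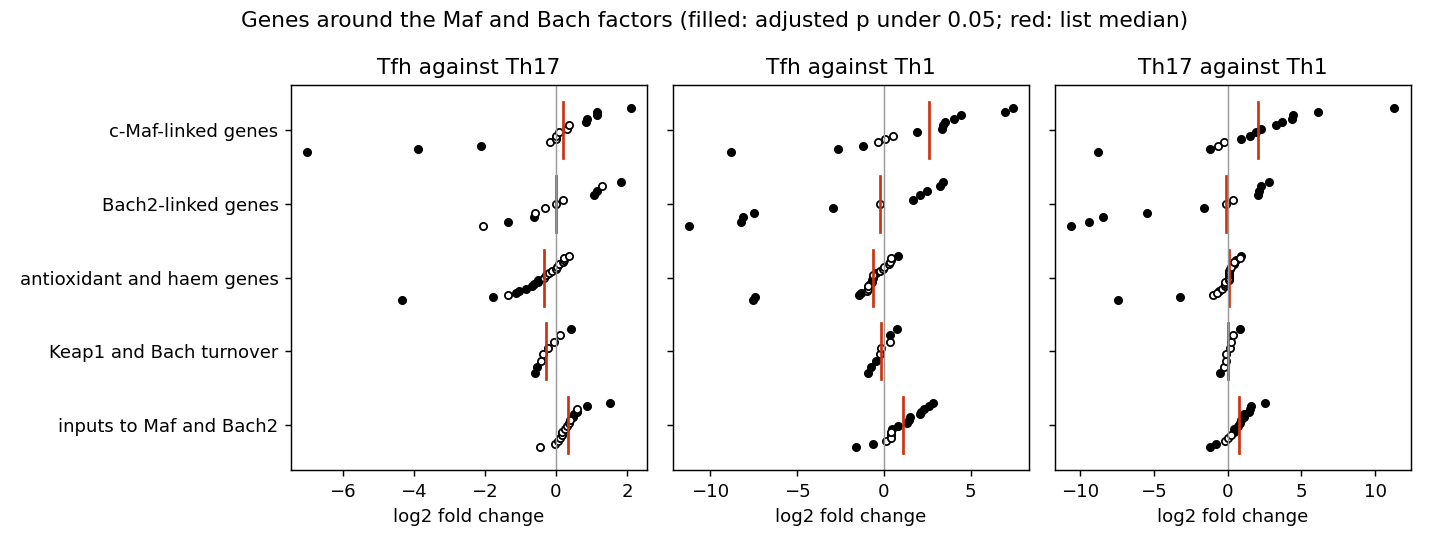
Log2 fold changes of every tested gene in the lists of genes linked to Maf and Bach factors, by comparison, with a red bar at each list's median. Filled points passed an adjusted p of 0.05, and those of Havcr2 and Me1, which had 0 counts in Tfh and Th17, are fitted values and not bounds. In Tfh against Th17 the open points of these genes are fixed at 0. The antioxidant list has its median below 0 in Tfh against both other conditions (-0.34 and -0.64), and the list of upstream genes has its median above 0 in all 3 comparisons (0.35, 1.08 and 0.78).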

How the data were processed

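The authors deposited 1 table of raw read counts by Entrez gene ID, and 15 single-sample files that held the same values. STAR 2.7.2b (alignment to mm10) and featureCounts 1.6.4 (counting) are named in the submitters' processing notes. Annotation, strand setting and handling of multi-mapped reads were not given in the sources used. The RNA input was 100 ng and the kit Lexogen SENSE, per the labels.

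RefSeq (GRCm38.p6) named 25275 IDs, GENCODE 18, and 1886 stayed unnamed. The main test was edgeR 4.0.16 in R 4.3.3: filterByExpr kept 12591 genes, TMM scaled the libraries, and a single model without covariates took all 15, with the robust quasi-likelihood test and Benjamini-Hochberg adjustment over those genes (threshold 0.05). Levels are CPM on scaled library sizes, and log2 fold changes carry an SE. Because separate mice or cultures are not stated, p-values reflect only how these samples vary, perhaps technically. No pair of libraries agreed within counting noise (lowest chi-square per gene 9.39). Floors and intervals ignore PCR duplication.

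The members and gene lists were chosen with earlier results of these data known. From each list, up to 4 called genes per direction, with the largest fold change, no overlap between libraries and a mean of at least 5 CPM in the higher condition, are named. Hmox1, Il4 and Il22 were named beside that rule, after their values were seen. Alternatives were RLE and unscaled library sizes, no filter and a stricter filter, DESeq2 1.42.0, limma-voom (limma 3.58.1), a fit of only the compared conditions, the replicate number as a block, a GC offset, both together, and leaving out each library. The fit was tested on simulated data. Some genes that the rule names are not reported here.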

Additional observations from a re-analysis of the deposited data

Results flagged for a closer look

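Among 45 groups of 5 libraries looked at (members, ratios between them and their sums, in 3 conditions), 4 held a library whose gap to its nearest neighbour, divided by the whole range of the group, exceeded Dixon's critical value of 0.71. Chance alone flags about 1 group in 20. In Th17 replicate 2, Bach2 was the highest of its group at 636.9 CPM, with the next library at 599.6 (gap over range 0.752). In the same library Mafg was the lowest of its group at 4.87 CPM, with the next at 8.54 (0.816). In Tfh replicate 1, the shallowest library, Mafk was the highest of its group at 27.5 CPM, with the next at 15.9 (0.754). The summed small Mafs of that library, which include Mafk, were also the highest at 18.6 CPM per kb, with the next at 13.4 (0.783).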

How the results depend on the processing

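Results of the members, of Nfe2l1 and Nfe2l2 and of list genes named by the rule were recomputed under 25 alternatives, as were counts of called genes. Of the alternatives, 15 leave out 1 library. Maf kept its calls and directions in all 25 for the 3 comparisons, as did Bach2 against Th1, Mafk against Th1 and Bach1 for Tfh against Th1. Without 1 library, Maf ranged from 0.94 to 1.14 (log2) for Tfh over Th17. Bach2 for Tfh over Th17 ranged from 0.30 to 0.38 and stayed at 0.33 without a filter, where its call was lost, so that 1 member was called in place of 2. The range without 1 library was likewise 1 to 2 members. With a GC offset Bach1 passed for Tfh over Th17 (0.77) and Mafg for Tfh over Th1 (0.62). With the GC offset and the replicate block together, these were 0.75 (adjusted p = 0.05, edgeR, below the threshold before rounding) and 0.64. Bach1 for Th17 over Th1 ranged from 0.79 to 1.27 without 1 library. Uncalled differences near 0 changed sign without 1 library: Mafk (-0.32 to 0.02) and Maff (-0.12 to 0.03) for Tfh over Th17, and Mafg (-0.08 to 0.25) for Th17 over Th1. Nfe2l1 for Tfh over Th17, which was not called, ranged from -0.09 (without Tfh replicate 1) to 0.17. The causes were not tested.

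Genes called between Tfh and Th17 rose from 2113 to 3386 with the GC offset, where 50.5% of calls were higher in Tfh in place of 40.5%, and to 3954 with the replicate block added. Whether replicate numbers pair the samples is not settled. No label says that they do, and same-numbered libraries of different conditions correlated at -0.10 to 0.57, with 7 of 15 pairs over 0.1, among them all 3 pairs of number 2 (0.13 to 0.23) and of number 4 (0.44 to 0.57). Libraries of different conditions and different numbers correlated at -0.52 to 0.61. Their median was -0.02, beside 0.06 for same-numbered pairs. A library correlated best with its own number in 13 of 30 cases, each a choice among the 5 libraries of another condition. With the replicate block alone, 2941 genes were called between Tfh and Th17, Maf stood at 1.03 ± 0.10 and Bach2 at 0.32 ± 0.09, and no member's call changed. Of the list genes, only those named by the rule, with Nfe2l1 and Nfe2l2, were recomputed singly. Of those values, 1945 kept their call and direction, 32 lost a call, 8 gained one and 1 changed sign. The rule picks called genes with large fold changes, so these numbers do not describe the whole lists. Total counts of a member did not order its errors: against Th1, Maf (111298 counts) had a standard error of 0.26 for Tfh and Mafk (2313 counts) one of 0.23. In the Th1 libraries alone the counts of these genes were close, 649 for Maf and 652 for Mafk. For Tfh against Th1, Bach2, with 9837 counts in Th1, had a standard error of 0.11. Counts in Th1 did not order the errors either: Maff had 536 and an error of 0.22, below those of Maf and Mafk. Mafg had 503 and an error of 0.29, and Bach1 359 and 0.31. What sets these errors was not tested.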
